A study of Mus musculus with 4 samples.

Results

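The integrated stress response and the unfolded protein response were followed through 36 named genes, out of 55401 genes in the count table. The genes were taken by symbol from a list chosen with earlier results of these data known. They comprise ATF4 with its partner factors (5 genes), feedback and effector genes of the integrated stress response (4), amino acid and one-carbon enzymes (9), the stress sensors with XBP1 (5), chaperones and folding enzymes of the endoplasmic reticulum (ER, 9) and genes of ER-associated degradation (4). The cells were R1 mouse embryonic stem cells. A control group with the genotype WT (wild type) was compared with a group whose genotype is Usp28 KO, a knockout of the deubiquitinase gene Usp28, with 2 libraries of polyadenylated RNA in each. Both groups grew on gelatin at 0.2% in N2B27 with 1 μM PD0325901, which inhibits MEK, 3 μM CHIR99021, which inhibits GSK3, and 10 ng/ml of the cytokine LIF, a medium called 2i/LIF. How the knockout was made, and whether the libraries of a group are separate cultures or clones, is not given in the sources used here, so p-values reflect no more than the scatter among these libraries, and that may be technical.

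Library totals ran from 16595196 to 19533608 counts. The gene-level Usp28 count does not check the label, since it was 189 and 197 CPM in the control libraries and 182 and 177 CPM in those labelled Usp28 KO. CPM is counts per 1e6 counts of the library, after scaling. All 8 listed embryonic stem cell markers were detected, with a summed level of 5135 to 5174 CPM in control and 4682 to 4764 CPM in Usp28 KO libraries. Fibroblast and feeder markers summed to 1.64 to 1.95 CPM in control and 1.61 to 1.71 CPM in Usp28 KO libraries, with Dcn, Lum and Postn at 0. Endoderm markers summed to 7.76 to 11.1 and 11.1 to 11.7 CPM, trophoblast markers to 144 to 182 and 140.2 to 176 CPM, and neural markers to 99.3 to 135 and 132 to 144 CPM. Libraries differed in how expression depended on the GC content of the transcript. Each library's log2 CPM, minus the mean of the other libraries, was correlated by rank with that GC content across genes. The correlation was -0.39 in control replicate 2 and 0.38 in Usp28 KO replicate 2. It was 0.014 in control replicate 1 and 0.050 in Usp28 KO replicate 1. A small value means only that a library was like the mean of the others, which may itself depend on GC content. GC-corrected values are therefore given beside the values of the 36 genes and of the gene lists. The mitochondrial share of counts was 2.77% and 5.65% in the control libraries and 1.92% and 3.33% in those labelled Usp28 KO, higher in the second replicate of each group. In bulk RNA, fewer cells of a type and less RNA per cell cannot be told apart.

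As background, the integrated stress response starts with kinases that phosphorylate the translation factor eIF2, which lowers protein synthesis in general while the messenger RNA of the transcription factor ATF4 is translated more. ATF4 then induces genes for amino acid synthesis, amino acid transport and tRNA charging, and the phosphatase subunit PPP1R15A closes the loop. The unfolded protein response senses misfolded protein in the ER through PERK, which is also an eIF2 kinase, IRE1, which splices the Xbp1 transcript, and ATF6, and it raises chaperones and degradation factors. Much of this control acts on translation, splicing and cleavage of proteins, which counts per gene do not show.

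None of the 36 genes passed the test between the groups. All 36 passed the filter on low counts, and 0 were called higher and 0 lower by edgeR's quasi-likelihood test at an adjusted p under 0.05, as for all 15341 genes tested (0.0%). At an unadjusted p under 0.05 edgeR counted 4 of the 36 higher (6.86% of all tested genes) and 1 lower (4.34%), where the share of all tested genes was 11.2% in either direction. The 5 were Pycr1 (ENSMUSG00000025140), Phgdh (ENSMUSG00000053398), Ddit3 (ENSMUSG00000025408) and Sdf2l1 (ENSMUSG00000022769), which were higher, and Dnajb9 (ENSMUSG00000014905). DESeq2 called 0 of the 36, against 1.0% of all genes with an adjusted p, and counted 2 higher and 1 lower unadjusted (8.83% of all genes). Limma-voom also called 0, with 3 higher and 1 lower unadjusted. The log2 fold changes, Usp28 KO minus control, ran from -0.64 for Dnajb9 to 0.58 for Stc2, with a median of 0.089 where that of all tested genes was -0.0040. They were positive for 23 of the 36, against 49.4% of all genes. Both Usp28 KO libraries lay above both control libraries for 10 of the 36 (21.4% of all genes) and below both for 4 (20.4% of all genes). After GC correction these counts were 5 (18.9% of all genes) and 6 (24.3%), the reverse balance, and the median was 0.044. At an unadjusted p under 0.05 the corrected fit counted 1 higher (5.21% of all genes) and 1 lower (6.02%), and at an adjusted p it called 0 (0.0%).

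**Figure D1:**
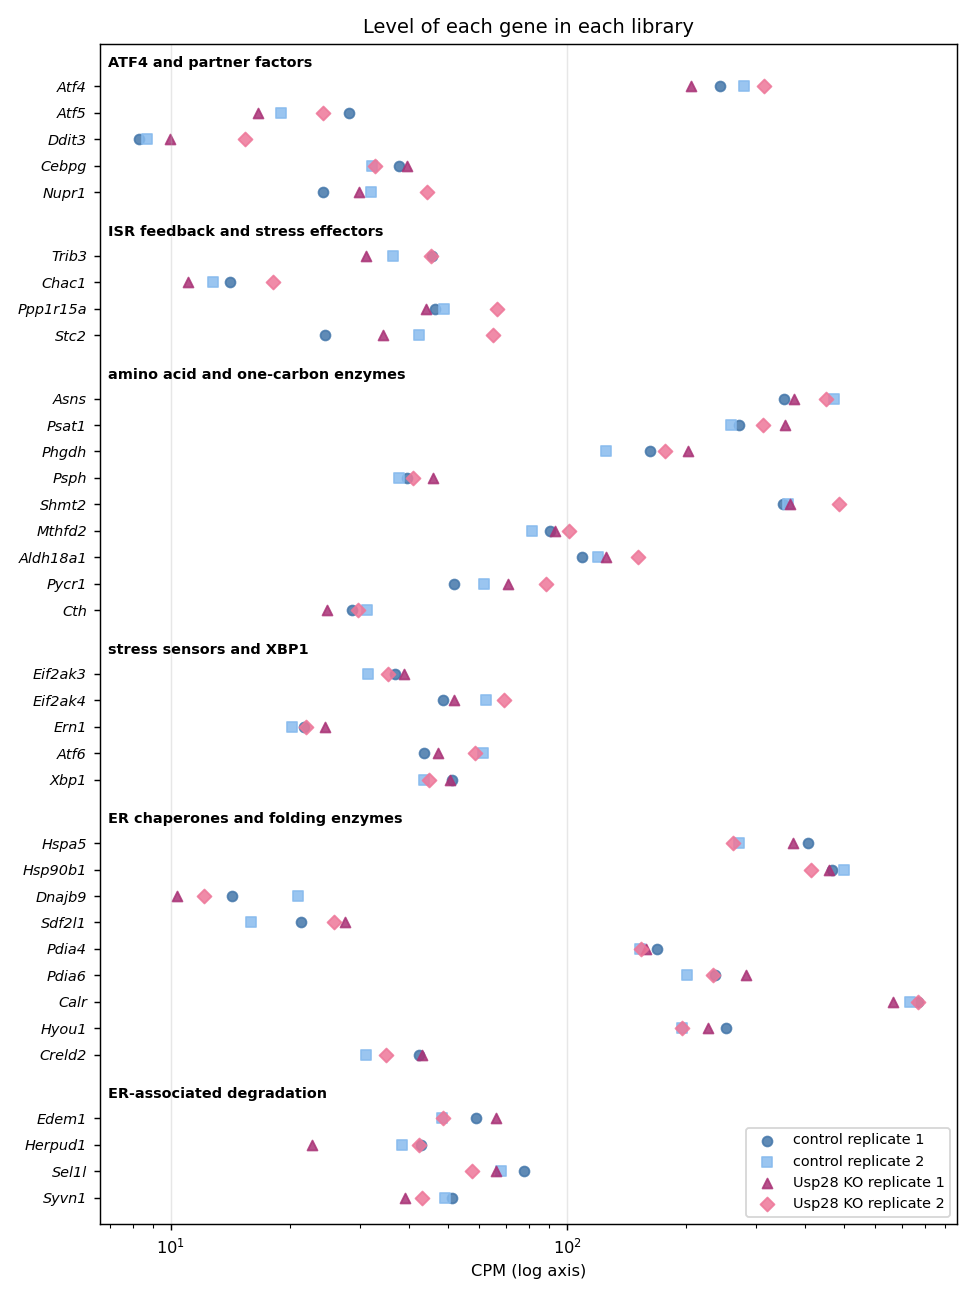
CPM on a log axis for each of the 36 genes (rows, grouped by role), with 1 point for each of the 4 libraries. Calr stands highest, between 664 and 772 CPM, and Ddit3 and Dnajb9 are among the lowest, between 8.29 and 20.9 CPM.

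Levels were compared between genes as CPM per kilobase of exon, averaged over the 4 libraries. The ER lectin chaperone gene Calr was highest at 255, and then came the asparagine synthetase gene Asns at 151, the serine hydroxymethyltransferase gene Shmt2 at 126, the ER chaperone gene Hsp90b1 at 114 and Atf4 at 111. The lowest were the IRE1 gene Ern1 at 2.70, the co-chaperone gene Dnajb9 at 5.65, Atf6 at 5.71 and the PERK gene Eif2ak3 at 5.90 CPM per kilobase. The top 4 were thus enzymes and ER chaperones, and 3 of the lowest 4 were sensors. On this scale Calr and Ern1 stood clear of the other genes named here. The libraries of Asns overlapped those of Shmt2, as did Shmt2 with Hsp90b1 and Hsp90b1 with Atf4. Those of Dnajb9, Atf6 and Eif2ak3 overlapped one another. The order of overlapping genes is thus not resolved.

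In what follows, a pair of levels gives replicate 1 and then replicate 2 of a group. Among ATF4 and its partner factors, Atf4 itself was at 243 and 281 CPM in controls and at 206 and 315 CPM in the knockout libraries. The Usp28 KO libraries lay outside the control pair on both sides, and the log2 fold change was -0.0076 ± 0.20 (SE), with a 95% interval of -0.45 to 0.43 (edgeR, adjusted p = 0.996), and -0.16 after GC correction. Ddit3, which encodes the pro-apoptotic factor CHOP, was at 8.29 and 8.70 CPM in the control pair, against 9.95 and 15.4 CPM in the Usp28 KO pair. The groups did not overlap, but Usp28 KO replicate 2 stood apart from the other 3 libraries. Of its exon length, 3.97% is shared with exons of Mars on the other strand. Its log2 fold change was 0.58 ± 0.26 (edgeR, adjusted p = 0.437), 0.52 after GC correction, 0.22 without Usp28 KO replicate 2 and 0.85 without Usp28 KO replicate 1. Nupr1, a small stress-induced chromatin protein gene, was at 24.3 and 32.0 CPM in controls and at 29.9 and 44.3 CPM in the knockout libraries. Its groups overlapped, and the highest value was again in Usp28 KO replicate 2 (log2 fold change 0.40 ± 0.23, and 0.33 after GC correction). Atf5, which encodes a factor related to ATF4, was at 28.2 and 18.9 CPM in the control pair, against 16.6 and 24.3 CPM in the Usp28 KO pair. Its log2 fold change was -0.21 ± 0.25, and -0.46 after GC correction. Of the Atf5 exon length, 4.11% is shared with exons of Nup62 on the other strand, which had 23114 counts in all libraries together. Cebpg, a gene for a dimer partner of ATF4, was at 37.7 and 32.2 CPM in controls and at 39.4 and 32.8 CPM in the knockout libraries, with a log2 fold change of 0.047 ± 0.19, and 0.068 after GC correction. Atf5 and Cebpg overlapped between the groups. After GC correction both Usp28 KO libraries lay below both control libraries for Atf5 (24.3% of all genes) and above for Ddit3 (18.9%).

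The feedback and effector genes were highest in Usp28 KO replicate 2 in 3 of 4 cases (23.3% of all genes). The groups overlapped for all 4, as for 8923 of all 15341 tested genes. After GC correction both Usp28 KO libraries lay below both control libraries for 1 of the 4, Trib3 (24.3% of all genes), and above for 0 (18.9%). Trib3, for a pseudokinase that restrains ATF4 and CHOP, was at 45.6 and 36.4 CPM in the control pair, against 31.1 and 45.4 CPM in the Usp28 KO pair (log2 fold change -0.10 ± 0.21, and -0.33 after GC correction). Chac1, for a glutathione-degrading enzyme, was at 14.1 and 12.8 CPM in controls and at 11.02 and 18.1 CPM in the knockout libraries (0.11 ± 0.26, and -0.092 after GC correction). Ppp1r15a was at 46.4 and 49.0 CPM in the control pair, against 44.1 and 66.4 CPM in the Usp28 KO pair (0.21 ± 0.20, and 0.043 after GC correction). In all 3 genes the Usp28 KO replicates differed more from each other than the group means did. The secreted glycoprotein gene Stc2 was at 24.5 and 42.2 CPM in controls and at 34.3 and 65.1 CPM in the knockout libraries. In each group the second replicate was the higher, and the groups overlapped. The log2 fold change was 0.58 ± 0.33 with a 95% interval of -0.18 to 1.34 (edgeR, adjusted p = 0.577), and 0.56 after GC correction. Stc2 was called when 1 of 2 particular libraries was left out, at 1.01 without control replicate 2 (edgeR, adjusted p = 0.0261) and at 0.97 without Usp28 KO replicate 1 (edgeR, adjusted p = 0.00859). Each of these fits has 1 library in an arm, which is assumed to vary like the pair of the other group. These calls stand against 1.01% and 0.884% of all genes tested in the same way. Leaving out control replicate 1 gave 0.24, and leaving out Usp28 KO replicate 2 gave 0.040. Over all 14 alternatives the adjusted p of Stc2 ran from 0.00468 to 0.976.

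**Figure D2:**
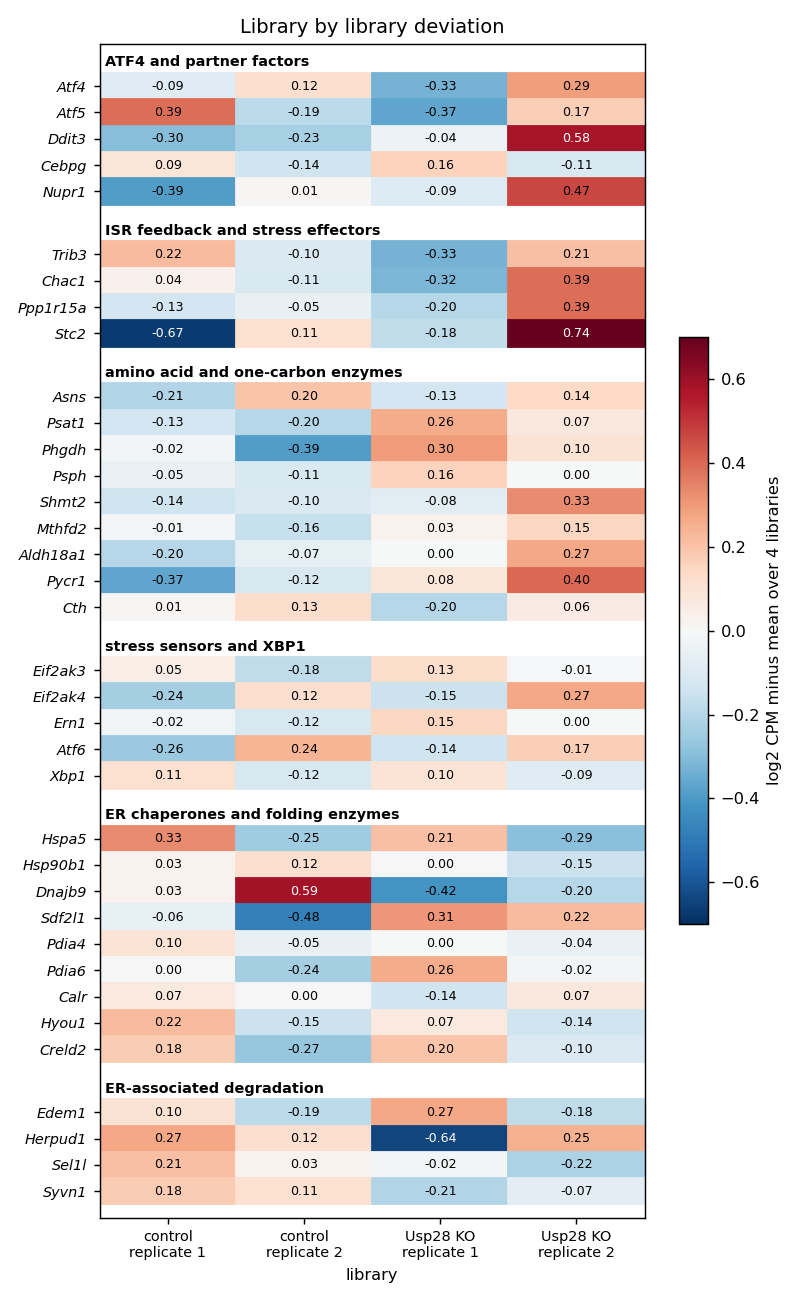
Each gene's log2 CPM (prior count of 2) in each library minus its mean over the 4 libraries, in red where above and in blue where below that mean. Stc2 runs from -0.67 in control replicate 1 to 0.74 in Usp28 KO replicate 2, and Herpud1 is at -0.64 in Usp28 KO replicate 1.

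In the enzyme group, 7 of 9 genes had both Usp28 KO libraries above both control libraries, against 21.4% of all tested genes, and none had both below. After GC correction both lay above for 3 of the 9 (18.9% of all genes), and below for 0. Serine synthesis runs through PHGDH, PSAT1 and PSPH. Phgdh was at 162 and 126 CPM in the control pair, against 202 and 176 CPM in the Usp28 KO pair, and its log2 fold change was 0.40 ± 0.17 (edgeR, adjusted p = 0.42), and 0.24 after GC correction. Psat1 was at 271 and 259 CPM in controls and at 355 and 312 CPM in the knockout libraries, at 0.33 ± 0.16 (edgeR, adjusted p = 0.477) and 0.32 after GC correction. Psph was at 39.5 and 37.7 CPM in the control pair, against 45.8 and 40.8 CPM in the Usp28 KO pair, at 0.17 ± 0.17 and 0.105 after GC correction. All 3 genes were highest in Usp28 KO replicate 1 and lowest in control replicate 2. Of the Psph exon length, 10.4% is shared with exons of Cct6a on the other strand, and the strand setting of the counting is not given, so reads there cannot be told apart.

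The mitochondrial one-carbon enzymes SHMT2 and MTHFD2 pass serine carbon to folate. Shmt2 was at 350.4 and 360.4 CPM in controls and at 366 and 485 CPM in the knockout libraries. Only replicate 2 of the Usp28 KO group stood clear of the other libraries, and the log2 fold change of 0.26 ± 0.18 was 0.045 after GC correction and 0.038 without that library. Mthfd2 was at 90.8 and 81.7 CPM in the control pair, against 93.4 and 101 CPM in the Usp28 KO pair (0.18 ± 0.16, and 0.15 after GC correction). Of the proline synthesis enzymes, Aldh18a1 was at 109 and 119.9 CPM in controls and at 125 and 151 CPM in the knockout libraries (0.27 ± 0.16, and 0.147 after GC correction). Pycr1 was at 51.9 and 61.8 CPM in the control pair, against 71.1 and 88.7 CPM in the Usp28 KO pair. Its groups did not overlap, also after GC correction, and it had the smallest p of the 36 genes. Its log2 fold change was 0.49 ± 0.18 with a 95% interval of 0.10 to 0.88 (edgeR, adjusted p = 0.33), 0.34 after GC correction, and 0.32 to 0.64 when any library was left out. Asns was at 353 and 471 CPM in controls and at 375 and 451 CPM in the knockout libraries, with a log2 fold change of 0.0016 ± 0.19 and a 95% interval of -0.41 to 0.41, and -0.018 after GC correction. Cth, the cystathionine gamma-lyase gene of cysteine synthesis, was at 28.7 and 31.3 CPM in the control pair, against 24.8 and 29.7 CPM in the Usp28 KO pair (-0.14 ± 0.19, and -0.068 after GC correction). These 2 genes overlapped between the groups, unlike the other 7 enzymes.

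**Figure D3:**
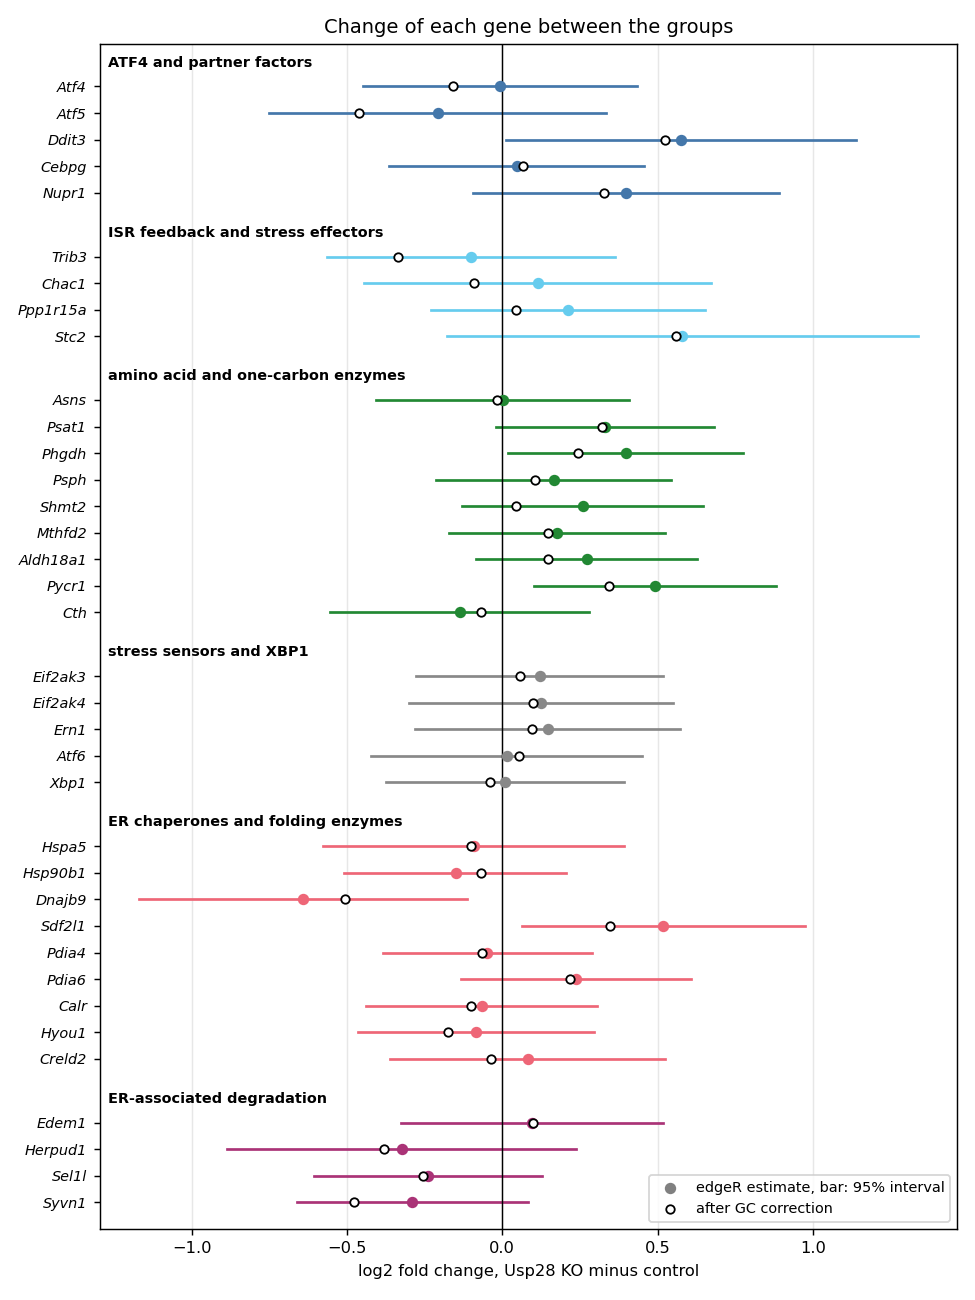
Log2 fold change of each gene, Usp28 KO minus control, from edgeR with its 95% interval (filled points and bars, coloured by role) and after GC correction (open points). The intervals of 31 genes include 0, and those of Ddit3, Phgdh, Pycr1, Dnajb9 and Sdf2l1 do not, before adjustment for the number of genes tested.

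ATF4 binds a composite element whose core was searched as TGATGNAA on both strands, in RefSeq promoters of the GRCm38.p6 build from 250 bases before to 50 bases after a start. Promoters were found for 33 of the 36 genes, all but Hyou1, Atf6 and Cth. The core was present for 5 of 17 ATF4 genes with a promoter (Asns, Chac1, Nupr1, Pycr1 and Trib3) and for Herpud1, against 4.51% of the 27025 genes searched (3.97% of their 32851 promoters). The stretches below show the core in capitals, as it stands on the gene's strand, for the enzyme gene with the smallest p, for Asns, and for 2 genes with high values in Usp28 KO replicate 2. They lie at chr11:120643824-120643871 (Pycr1, minus strand), chr6:7693210-7693252 (Asns, minus), chr7:126625553-126625600 (Nupr1, minus) and chr2:119351029-119351076 (Chac1, plus).
Pycr1: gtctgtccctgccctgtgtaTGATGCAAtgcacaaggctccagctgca
Asns: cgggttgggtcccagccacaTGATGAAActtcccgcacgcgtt
Nupr1: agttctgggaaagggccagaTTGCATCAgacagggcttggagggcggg
Chac1: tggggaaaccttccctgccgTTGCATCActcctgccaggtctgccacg
The 4 genes carry the same core in either direction, and their log2 fold changes were 0.49, 0.0016, 0.40 and 0.11. A match describes letters and not a bound site.

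The sensors and XBP1 had log2 fold changes between 0.0084 and 0.15, the narrowest range of the 6 roles, each smaller than its standard error. Eif2ak3 was at 36.8 and 31.4 CPM in controls and at 38.8 and 35.3 CPM in the knockout libraries (0.12 ± 0.18, and 0.058 after GC correction). Eif2ak4, for the amino acid sensing kinase GCN2, was at 48.6 and 62.3 CPM in the control pair, against 51.7 and 69.2 CPM in the Usp28 KO pair (0.13 ± 0.20, and 0.098 after GC correction). Ern1 was at 21.7 and 20.2 CPM in controls and at 24.5 and 21.98 CPM in the knockout libraries (0.15 ± 0.20, and 0.096 after GC correction). Ern1 was the only one of the 5 whose groups did not overlap, and the nearest libraries of the groups differed by little. That is 1 of the 5 with both Usp28 KO libraries above (21.4% of all genes) and 0 with both below (20.4%). After GC correction the groups overlapped for Ern1 too, with 0 above (18.9% of all genes) and 0 below (24.3%). Atf6 was at 43.5 and 61.5 CPM in the control pair, against 47.3 and 58.6 CPM in the Usp28 KO pair (0.014 ± 0.20, and 0.0555 after GC correction). Xbp1 was at 51.2 and 43.6 CPM in controls and at 50.7 and 44.8 CPM in the knockout libraries (0.0084 ± 0.18, 95% interval -0.38 to 0.39, and -0.039 after GC correction). For Xbp1, Eif2ak3, Eif2ak4 and Atf6 the libraries split by replicate number and not by group, in opposite directions. Both libraries numbered 1 lay above both numbered 2 for Xbp1 and Eif2ak3 (20.4% of all tested genes). They lay below for Eif2ak4 and Atf6 (3072 of all 15341 tested genes).

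The ER chaperones and folding enzymes were at a median log2 fold change of -0.066 over 9 genes, and ran from -0.64 for Dnajb9 to 0.52 for Sdf2l1. Hspa5, for the master chaperone BiP, was at 406 and 271 CPM in the control pair, against 372 and 263 CPM in the Usp28 KO pair. Both first replicates were high and both second replicates low, and the log2 fold change was -0.092 ± 0.22 with a 95% interval of -0.58 to 0.39, and -0.10 after GC correction. Hsp90b1, for the HSP90 form of the ER (GRP94), was at 468 and 501 CPM in controls and at 459.6 and 413 CPM in the knockout libraries (-0.15 ± 0.16, and -0.068 after GC correction). Both Usp28 KO libraries were the lower ones here. Of its exon length, 10.3% is shared with a pseudogene on the other strand that had 180 counts in all libraries together. Calr was at 769 and 734 CPM in the control pair, against 664 and 772 CPM in the Usp28 KO pair (-0.066 ± 0.17, and -0.0998 after GC correction).

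Dnajb9, for the BiP co-chaperone ERdj4, was at 14.2 and 20.9 CPM in controls and at 10.4 and 12.1 CPM in the knockout libraries. The groups did not overlap, and control replicate 2 was well above the other 3 libraries. The log2 fold change was -0.64 ± 0.24 with a 95% interval of -1.17 to -0.11 (edgeR, adjusted p = 0.343), -0.51 after GC correction and -0.35 without control replicate 2. Sdf2l1, for another component of the BiP chaperone complex, was at 21.3 and 15.9 CPM in the control pair, against 27.5 and 25.9 CPM in the Usp28 KO pair. Both Usp28 KO libraries lay above both control libraries, the reverse of Dnajb9. The log2 fold change was 0.52 ± 0.21 with a 95% interval of 0.062 to 0.98 (edgeR, adjusted p = 0.376), 0.35 after GC correction and 0.32 without control replicate 2.

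Pdia4 and Pdia6 encode protein disulfide isomerases. Pdia4 was at 169 and 153 CPM in controls and at 158 and 154 CPM in the knockout libraries (-0.048 ± 0.15, and -0.066 after GC correction). Pdia6 was at 237 and 201 CPM in the control pair, against 282 and 234 CPM in the Usp28 KO pair (0.24 ± 0.17, and 0.22 after GC correction). Both overlapped between the groups. Hyou1, for a nucleotide exchange factor of BiP, was at 252 and 195 CPM in controls and at 227 and 196 CPM in the knockout libraries (-0.084 ± 0.18, and -0.17 after GC correction). Creld2, for a disulfide isomerase-like protein, was at 42.4 and 31.02 CPM in the control pair, against 43.0 and 34.8 CPM in the Usp28 KO pair (0.082 ± 0.20, and -0.036 after GC correction). For Hspa5, Pdia4, Pdia6, Hyou1 and Creld2, 5 of the 9 genes, both libraries numbered 1 lay above both numbered 2, against 20.4% of all tested genes. The labels do not say what the number marks. The mitochondrial share of counts also split by number, at 2.77% and 1.92% in the libraries numbered 1 and 5.65% and 3.33% in those numbered 2, and its part in these values was not tested.

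The ER stress response element binds ATF6 together with NF-Y, and was searched on both strands of the same promoters as CCAAT and CCACG with 9 free bases between them. It was present for 5 of 8 chaperone genes with a promoter (Calr, Creld2, Hsp90b1, Hspa5 and Pdia6) and for Syvn1, and for 0.137% of all genes (0.119% of all promoters). The variant form, ATTGG and CCACG with 1 free base between them, was present for Herpud1 alone (0.044% of all genes), and the core TGACGTG of the element bound by XBP1 for Hspa5 alone (2.22% of all genes). No 2 matches overlapped in these promoters. The stretches below show the element in capitals for 3 genes that carry it and differ in their values, with Creld2 holding it as the reverse complement. They lie at chr2:34772005-34772063 (Hspa5, plus strand), chr12:17266471-17266529 (Pdia6, plus), chr15:88819500-88819558 (Creld2, plus) and chr19:6046512-6046570 (Syvn1, plus), the last for the degradation gene described next.
Hspa5: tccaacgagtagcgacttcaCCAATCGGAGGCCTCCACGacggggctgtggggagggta
Pdia6: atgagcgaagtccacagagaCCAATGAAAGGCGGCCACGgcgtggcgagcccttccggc
Creld2: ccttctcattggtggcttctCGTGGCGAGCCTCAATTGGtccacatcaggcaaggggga
Syvn1: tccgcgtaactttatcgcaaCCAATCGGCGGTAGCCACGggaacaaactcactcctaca
The first 3 of these genes split by replicate number, and Syvn1 by group. Their log2 fold changes were -0.092, 0.24, 0.082 and -0.29. Dnajb9 and Sdf2l1, at the ends of the chaperone range, held none of the 4 motifs in this window.

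The genes of ER-associated degradation, which returns misfolded proteins to the cytosol, were at a median log2 fold change of -0.26 over 4 genes, and -0.32 after GC correction. Syvn1, for the ubiquitin ligase HRD1, was at 51.2 and 49.1 CPM in controls and at 39.1 and 43.1 CPM in the knockout libraries. The groups did not overlap, also after GC correction, and the log2 fold change was -0.29 ± 0.17 (edgeR, adjusted p = 0.576) and -0.48 after GC correction. Sel1l, for the adaptor of HRD1, was at 77.7 and 68.2 CPM in the control pair, against 66.02 and 57.6 CPM in the Usp28 KO pair (-0.24 ± 0.17, and -0.255 after GC correction). Its groups did not overlap either, by a small margin. Herpud1, for a ubiquitin-like membrane protein of the HRD1 complex, was at 42.8 and 38.4 CPM in controls and at 22.7 and 42.2 CPM in the knockout libraries. Only Usp28 KO replicate 1 was low, so the log2 fold change of -0.32 ± 0.26 was -0.38 after GC correction, 0.054 without that library and -0.85 without Usp28 KO replicate 2. Edem1, for a mannosidase-like protein that routes glycoproteins to degradation, was at 59.1 and 48.2 CPM in the control pair, against 66.2 and 48.5 CPM in the Usp28 KO pair (0.096 ± 0.19, and 0.099 after GC correction).

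ATF4 and its target genes, the first 3 roles together, were at a median log2 fold change of 0.19 over 18 genes, against -0.066 for the 9 ER chaperones and -0.0040 for all tested genes. Of the 18 genes, 14 had a positive value, and of the 9 chaperones 3 had, where the share of all genes was 49.4%. The difference of the medians was 0.26. Within each library, the mean log2 CPM of the 18 genes minus that of the 9 chaperones was -1.19 and -0.98 in control and -1.11 and -0.65 in Usp28 KO libraries. The groups overlapped, since control replicate 2 lay above Usp28 KO replicate 1. The means were -1.09 ± 0.15 (SD) and -0.88 ± 0.32 (SD), so their difference of 0.21 was smaller than the spread between the Usp28 KO libraries. With the 9 enzymes alone in place of the 18 genes, the values were -0.29 and -0.073 in control and -0.067 and 0.18 in Usp28 KO libraries. The groups then did not overlap, by a narrow margin. With the 18 genes and with the 9 enzymes alike, replicate 2 lay above replicate 1 in each group. After GC correction the values with the 18 genes were -1.19 and -0.91 in control and -1.12 and -0.71 in Usp28 KO libraries. The groups overlapped there too, with a difference of 0.14 between their means. The values with the 9 enzymes were not GC-corrected.

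**Figure D4:**
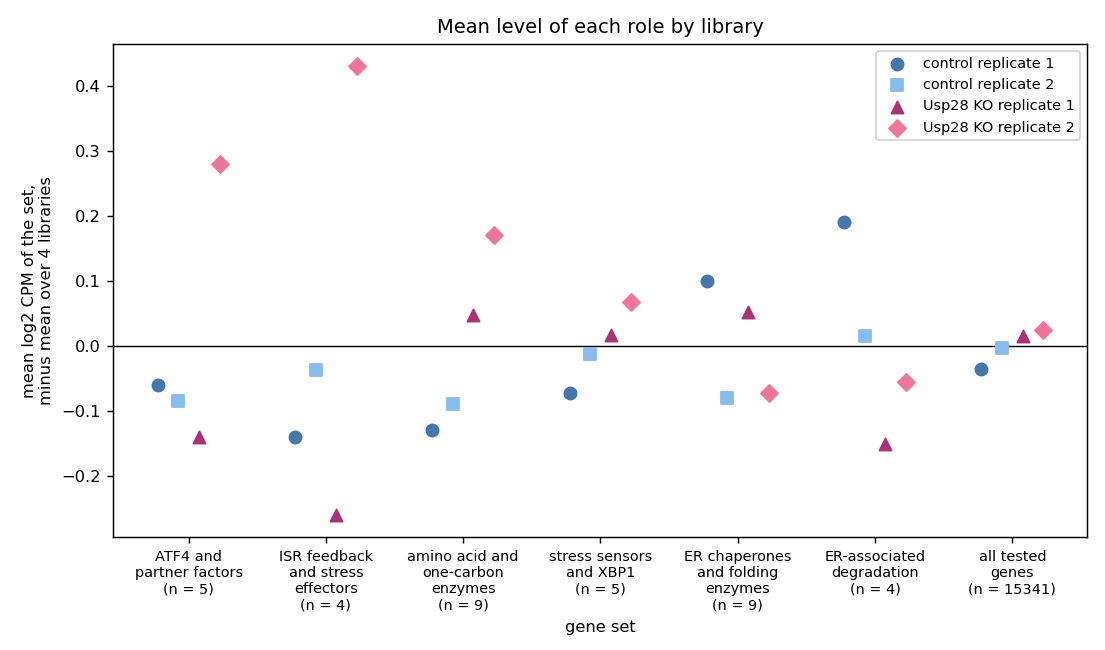
Mean log2 CPM of each role in each library minus its mean over the 4 libraries, with all tested genes at the right. Usp28 KO replicate 2 is highest in the first 4 roles, at 0.43 for the feedback and effector genes, and control replicate 1 is highest for chaperones (0.10) and ER-associated degradation (0.19).

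Usp28 KO replicate 2 was the highest library for 10 of the 18 ATF4 genes, against 23.3% of all tested genes, and the lowest for 0 of them. Without it the ATF4 median was 0.061 and the chaperone median 0.012, a difference of 0.049. Without control replicate 1 the chaperone median was 0.11 and the difference 0.091. The medians also moved with GC correction. The transcripts of the ATF4 genes had a median GC content of 53.5%, those of the chaperones 48.6% and all tested genes 50.1%, and the same library had the highest rank correlation with GC content. The part of GC content in the library's high values was not tested beyond this correction. After correction both Usp28 KO libraries lay above both control libraries for 4 of the 18 genes (18.9% of all genes) and below for 2 (24.3% of all genes). The ATF4 median was then 0.086, that of the chaperones -0.068, and that of all tested genes -0.035.

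**Figure D5:**
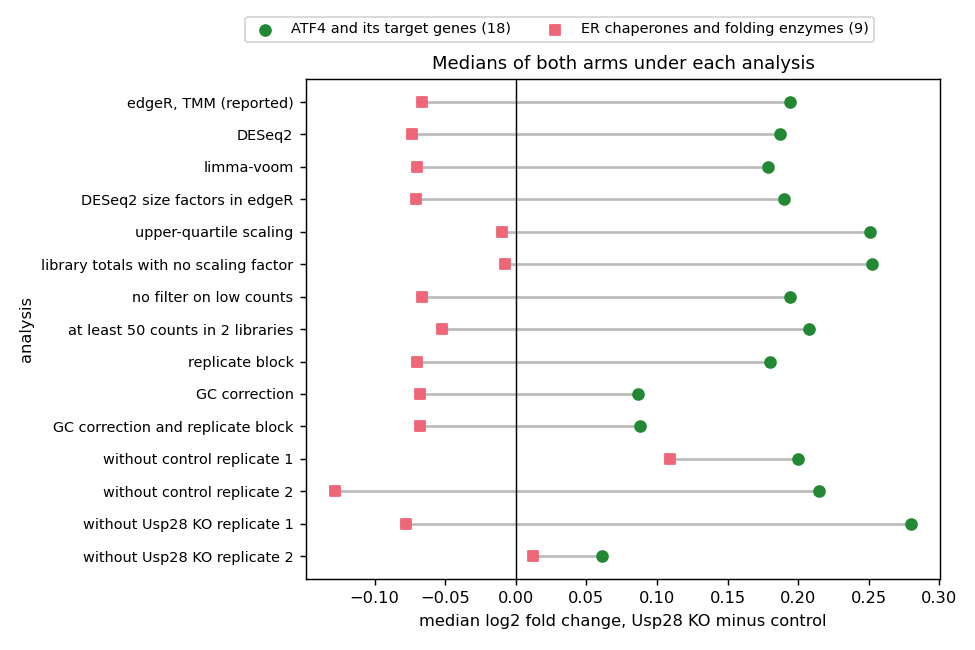
Median log2 fold change, Usp28 KO minus control, of ATF4 and its target genes (18, circles) and of ER chaperones (9, squares) in the reported analysis and in 14 alternatives. The circle lies to the right of the square in each, and the gap runs from 0.049 without Usp28 KO replicate 2 to 0.36 without Usp28 KO replicate 1.

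Other genes of the 2 pathways were read from 5 further lists. Of 21 tested ATF4 targets outside the 36 genes, edgeR called 0 and DESeq2 called 1 higher (1.0% of all genes were called in either direction). At an unadjusted p under 0.05 edgeR counted 2 higher (6.86% of all genes) and 1 lower (4.34%). The gene that DESeq2 called was Ddit4, an inhibitor gene of mTORC1. Ddit4 was at 75.1 and 101 CPM in controls and at 245 and 194 CPM in the knockout libraries. Its log2 fold change was 1.32 ± 0.19 (edgeR, adjusted p = 0.054, and DESeq2, adjusted p = 5.48e-06). With GC correction it was 1.11 (edgeR, adjusted p = 0.294). The median of this list was 0.17, and 13 of its 21 genes were highest in Usp28 KO replicate 2 (23.3% of all genes). After GC correction the median was 0.067. Both Usp28 KO libraries then lay above both control libraries for 4 genes (18.9% of all genes) and below for 3 (24.3%). Before correction they lay above for 7 (21.4% of all genes) and below for 1 (20.4%). Slc38a2, for the glutamine transporter SNAT2, was at 285 and 292 CPM in the control pair, against 199.8 and 214 CPM in the Usp28 KO pair (-0.48 ± 0.16; edgeR, adjusted p = 0.278). The lipoprotein receptor gene Vldlr was at 7.37 and 10.53 CPM in controls and at 10.54 and 16.86 CPM in the knockout libraries. Its log2 fold change was 0.62 ± 0.28 (edgeR, adjusted p = 0.44), and 0.235 to 0.917 when any library was left out. Atf3, for a stress-induced repressor, had 0.87 ± 0.43 (edgeR, adjusted p = 0.484) with means of 1.03 CPM in controls and 1.90 CPM in the knockout libraries. Fgf21 did not reach the filter, with 0 and 1 counts in control and 2 and 3 in Usp28 KO libraries.

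The 20 aminoacyl-tRNA synthetase genes, which charge tRNAs and are ATF4 targets in part, lay within -0.21 and 0.15 with a median of 0.052. Both Usp28 KO libraries lay below both control libraries for 3 of these genes (20.4% of all genes) and above for 0 (21.4%). After GC correction the median was -0.016, and these counts were 5 (24.3% of all genes) and 2 (18.9%). EdgeR and DESeq2 called 0 of them, and 0 had an unadjusted p under 0.05 with edgeR. The extremes were the arginine enzyme gene Rars at -0.21 ± 0.16 and the methionine enzyme gene Mars at 0.15 ± 0.17. The phenylalanine enzyme subunit gene Farsb was at -0.17 ± 0.16 and the tyrosine enzyme gene Yars at 0.14 ± 0.16. Among 13 genes of the eIF2 and eIF2B machinery, 11 had a negative and 2 a positive log2 fold change (49.4% of all genes were positive), and the median was -0.15, with -0.16 after GC correction. Both tools called 0, and with edgeR 2 were lower at an unadjusted p under 0.05 (4.34% of all genes). Both Usp28 KO libraries lay below both control libraries for 4 of the 13 (20.4% of all genes) and above for 1 (21.4%). After GC correction they lay below for 7 (24.3% of all genes) and above for 2 (18.9%). Impact, for an inhibitor of GCN2, was at 365 and 297 CPM in controls and at 260.2 and 201 CPM in the knockout libraries (-0.52 ± 0.18; edgeR, adjusted p = 0.322). Eif2ak1, for the heme-regulated eIF2 kinase HRI, was at 52.2 and 61.2 CPM in the control pair, against 35.4 and 44.5 CPM in the Usp28 KO pair (-0.50 ± 0.19; edgeR, adjusted p = 0.333). Both had groups that did not overlap. Eif2b3, for an eIF2B subunit, and Eif2ak2, for the RNA-activated kinase PKR, were at 0.19 ± 0.17 and -0.22 ± 0.20.

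Of 25 further ER folding and import genes, both tools called 0, edgeR counted 1 higher at an unadjusted p under 0.05 (6.86% of all genes), and the median was -0.024, with -0.066 after GC correction. Sil1, for a nucleotide exchange factor of BiP, was at 9.98 and 13.8 CPM in controls and at 17.8 and 20.3 CPM in the knockout libraries (0.68 ± 0.23; edgeR, adjusted p = 0.304). The oxidase genes Ero1l and Ero1lb were at 0.42 ± 0.20 and 0.60 ± 0.30, and the disulfide isomerase gene Pdia3 at -0.30 ± 0.16. Of 19 further ER degradation and signalling genes, both tools called 0, edgeR counted 0 at an unadjusted p under 0.05, and the median was -0.11, with -0.0899 after GC correction. The mannosidase-like genes Edem2 and Edem3 were at 0.35 ± 0.17 and -0.35 ± 0.19, and the lectin gene Erlec1 at -0.43 ± 0.22. Both Usp28 KO libraries lay above both control libraries for 4 of the 25 and 1 of the 19 genes (21.4% of all genes). They lay below for 4 and 6 (20.4%). After GC correction they lay above for 5 and 1 (18.9% of all genes) and below for 5 and 5 (24.3%). Both libraries numbered 1 lay above both numbered 2 for 11 of the 25 and 10 of the 19 genes, against 20.4% of all tested genes. They lay below for 3 and 1 (3072 of all 15341 tested genes). Among the 18 ATF4 genes the balance was the reverse, with 1 above and 6 below. Among the 21 further ATF4 targets it was 0 above and 8 below. The part of the replicate number in the difference between ATF4 genes and chaperones was not tested.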

How the data were processed

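Polyadenylated RNA of 4 libraries was counted per gene. The deposited table holds raw read counts in the featureCounts layout. Per the submitters' processing notes, the authors used HISAT2, featureCounts, DESeq2 and the build mm10; no version is given. Neither the strandedness of the counting nor its rule for multi-mapping reads is stated there. Exon lengths are a further column of the deposited table, per the file headers. GENCODE M21 supplied gene symbols and the GC content of transcripts: of the identifiers, compared without version, 55141 were found in it and 260 were not. Ddit3 matched 2 identifiers, and the one with counts was used.

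In R 4.3.3, edgeR 4.0.16 kept 15341 genes (filterByExpr, minimum count 10, minimum total 15), scaled libraries by TMM and compared the groups with a robust quasi-likelihood fit. P-values were adjusted by Benjamini-Hochberg over all tested genes, with a threshold of 0.05. Standard errors and 95% intervals come from that fit. Alternatives were DESeq2 1.42.0, limma-voom (limma 3.58.1), other scalings and filters, a replicate block, each library left out, and GC correction by offsets from a spline with 5 degrees of freedom, with GC content known for 99.9% of tested genes. The reported edgeR fit and DESeq2 were tested on simulated counts, and the other alternatives were not. Those counts had the same dispersion for every gene and no effect of GC content or replicate number.

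The members and lists were chosen with earlier results of these data known. All 36 members are named, with Usp28 and, from each further list, the 4 genes with the smallest edgeR p and any gene called by edgeR or DESeq2. One gene that this rule names is not reported here.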

Additional observations from a re-analysis of the deposited data

How the results depend on the processing

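With 2 libraries per group, calls depended on the analysis. Over all genes edgeR's count of 0 became 132 with DESeq2, 21 with upper-quartile scaling, 29 with library totals, 322 with no filter and 142 to 346 with a library left out. With the replicate number as a block it was 1681 (965 higher and 716 lower), and 2316 with the block and GC correction (864 higher and 1452 lower). Same-numbered libraries deviated together across genes (r = 0.354), but with 2 pairs and no label for the number this does not establish a pairing. Of the 36 genes, the block called 6 (Phgdh, Ddit3, Stc2, Pycr1 and Sdf2l1 higher, Dnajb9 lower), against 11.0% of all genes. The block with GC correction called 7 (Phgdh, Nupr1, Stc2, Pycr1 and Psat1 higher, Dnajb9 and Syvn1 lower), against 15.1% of all genes. With a library left out 0 to 1 were called, and 0 in the other alternatives. Scaling moved the median of all genes from -0.0088 to 0.057.

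The chaperone median ran from -0.13 to 0.11 with a library left out. The ATF4 median and the difference of the medians were positive in all 14 alternatives. Of the 36 log2 fold changes, 14 stayed positive and 5 negative in all of them, and 17 changed sign in at least 1. Atf4 was at 0.050 with upper-quartile scaling, 0.051 with library totals and 0.0062 with a filter of 50 counts in 2 libraries. Pdia4 was at 0.0090 and 0.012 with those scalings. Asns was at -0.0041 with DESeq2 and -0.0023 with its size factors. With GC correction, and with that and the block, Asns was at -0.018 and -0.012, Chac1 at -0.092 and -0.12, Xbp1 at -0.039 and -0.038, and Creld2 at -0.036 and -0.034. With a library left out, Atf4 ran from -0.35 to 0.27, Atf5 from -0.515 to 0.109, Cebpg from -0.094 to 0.17 and Trib3 from -0.40 to 0.145. Chac1 ran from -0.295 to 0.43, Ppp1r15a from -0.12 to 0.48, Asns from -0.19 to 0.21 and Eif2ak4 from -0.10 to 0.32. Atf6 ran from -0.22 to 0.27, Xbp1 from -0.11 to 0.13, Hspa5 from -0.36 to 0.23 and Pdia4 from -0.13 to 0.025. Calr ran from -0.18 to 0.037, Hyou1 from -0.27 to 0.109, Creld2 from -0.13 to 0.32, Edem1 from -0.146 to 0.298 and Herpud1 from -0.845 to 0.054. Apart from the libraries left out, the cause was not tested.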
